A study of Homo sapiens with 16 samples.

Results

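The nuclear-encoded subunits of the respiratory chain were followed through a time course of A549 cells undergoing an epithelial to mesenchymal transition (EMT) induced by TGF-beta. A549 is a widely used cell line from a human lung adenocarcinoma. Members were the gene rows whose symbol began with NDUFA, NDUFB, NDUFC, NDUFS, NDUFV, UQCR, COX4 to COX8 or ATP5, or was SDHA, SDHB, SDHC or SDHD. NDUFAF symbols and symbols ending in P or in P and digits were dropped. This gave 94 of the 57773 rows of the tables, under 90 symbols: 44 rows of complex I, 5 of complex II, 9 of complex III, 17 of complex IV and 19 of complex V. The study sampled the cells at 0, 6, 12, 24, 36, 48, 72 and 96 h, with 2 libraries at each time, numbered replicate 1 and 2, and 16 libraries in all. The 7 later groups are TGF-beta-treated cells, and the 0 h libraries are the start of the course to which each was compared. The labels give no dose of TGF-beta, and no untreated cultures of the later times were used here, so TGF-beta and time in culture cannot be told apart. The labels do not say whether the 2 libraries of a time are separate cultures. The p-values therefore cover the spread of these libraries alone, and that spread may be technical.

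The respiratory chain is the set of inner mitochondrial membrane complexes that carry out oxidative phosphorylation. Complexes I (NADH dehydrogenase) and II (succinate dehydrogenase) feed electrons into ubiquinone, complex III passes them to cytochrome c, complex IV (cytochrome c oxidase) passes them to oxygen, and complex V (ATP synthase) uses the resulting proton gradient to make ATP. Most subunits are encoded in the nucleus and imported, a few of the membrane core are encoded by mitochondrial DNA, and the nuclear genes are commonly described as responsive to the factors NRF1, GABPA (of the ETS family) and YY1. How this chain behaves in carcinoma cells that acquire mesenchymal traits is a recurring question in EMT work.

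Levels are in TPM, a gene's length-corrected share of the transcripts in a library, scaled to the same total in every library. Changes are log2 fold changes on the log2(TPM + 1) scale, which understates changes of low genes. The linear model of limma with Benjamini-Hochberg adjustment was fitted to the 16967 genes that reached 1 TPM in 2 or more libraries. Calls needed an adjusted p under 0.05. Of the 94 member rows, 85 passed this filter. A sum of 6 abundant small RNAs took 42.5% to 64.1% of the TPM of a library, so every level of another gene is relative to a total that moves. For this reason values after TMM scaling, which sets most genes level between libraries, are given beside the main results. The library of 12 h replicate 1 stood apart, with the smallest small RNA share and the largest TMM factor (1.54, against 0.705 to 1.24 in the other 15). TPM keep no read totals, so the depth of the libraries is unknown. Whether a lower level means fewer expressing cells or less RNA per cell cannot be told apart in bulk libraries. The 6 epithelial keratin and adhesion markers were expressed in every library, with a summed level of 2204 to 6428 TPM. That sum was 4887 and 5856 TPM at 0 h, 2305 and 2734 at 48 h and 2849 and 2204 at 96 h, so it was lower late in the course along with the members' sum, and its part in the members' levels was not tested. Summed markers of fibroblasts, endothelium, leukocytes, erythroid cells and muscle each stayed at or below 13.6 TPM.

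Promoters are shown for the members on which the results below turn: the subunit c gene that changed most and its more abundant paralog, 2 complex I genes that fell at 48 h, and the most abundant gene of complex II. Each is the RefSeq (GRCh38.p14) window of 250 bases before to 50 bases after the start, 5′ to 3′ on the strand of the gene. Capitals mark NRF1 (GCGCA and GCGC with any 1 base between), ETS (CCGGAAG), YY1 (AAGATGGCG) and CCAAT matches on either strand. RefSeq lists ATP5G1 as ATP5MC1 at chr17:48892537-48892836 (plus strand), ATP5G2 as ATP5MC2 at chr12:53676034-53676333 (minus), NDUFA6 at chr22:42090723-42091022 (minus), NDUFS1 at chr2:206159395-206159694 (minus) and SDHA at chr5:218070-218369 (plus).
ATP5G1: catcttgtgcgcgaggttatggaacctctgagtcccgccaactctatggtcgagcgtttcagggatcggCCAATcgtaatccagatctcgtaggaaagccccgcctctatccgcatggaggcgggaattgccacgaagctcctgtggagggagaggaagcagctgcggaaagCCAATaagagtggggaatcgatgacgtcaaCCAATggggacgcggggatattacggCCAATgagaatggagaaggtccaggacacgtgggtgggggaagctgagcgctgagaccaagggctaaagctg
ATP5G2: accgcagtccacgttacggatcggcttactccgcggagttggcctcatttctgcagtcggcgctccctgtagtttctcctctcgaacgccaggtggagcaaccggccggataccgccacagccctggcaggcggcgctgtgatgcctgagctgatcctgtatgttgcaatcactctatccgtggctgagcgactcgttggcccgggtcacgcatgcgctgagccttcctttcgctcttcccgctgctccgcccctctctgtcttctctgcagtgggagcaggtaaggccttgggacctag
NDUFA6: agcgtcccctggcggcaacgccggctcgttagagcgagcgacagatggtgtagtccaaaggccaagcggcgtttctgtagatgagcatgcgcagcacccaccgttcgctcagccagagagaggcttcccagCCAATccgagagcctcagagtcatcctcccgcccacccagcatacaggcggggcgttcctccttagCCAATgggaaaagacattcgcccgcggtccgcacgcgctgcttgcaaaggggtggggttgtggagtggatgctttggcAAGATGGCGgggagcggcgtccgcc
NDUFS1: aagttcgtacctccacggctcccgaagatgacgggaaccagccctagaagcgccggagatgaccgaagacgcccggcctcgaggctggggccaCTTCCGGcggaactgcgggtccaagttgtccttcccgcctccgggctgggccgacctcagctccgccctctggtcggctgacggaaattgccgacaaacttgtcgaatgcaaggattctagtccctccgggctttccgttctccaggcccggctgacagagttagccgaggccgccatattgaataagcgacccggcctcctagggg
SDHA: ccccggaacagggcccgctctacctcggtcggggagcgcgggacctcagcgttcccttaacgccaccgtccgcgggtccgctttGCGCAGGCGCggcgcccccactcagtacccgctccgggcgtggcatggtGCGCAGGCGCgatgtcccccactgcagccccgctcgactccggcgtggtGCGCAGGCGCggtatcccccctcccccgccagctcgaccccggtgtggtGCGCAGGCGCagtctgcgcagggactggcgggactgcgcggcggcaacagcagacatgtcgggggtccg

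Of the 94 member rows, 71 had a promoter in the RefSeq table, and 64 of the 77 tested members with a mean of at least 10 TPM did. NRF1 matches lay in 15 of these 64 promoters (23.4%), against 6.28% of all 27305 promoters of the same length. ETS matches lay in 19 (29.7%, against 10.7%), YY1 matches in 8 (12.5%, against 1.85%), and the SP1 letters GGGCGG in 38 (59.4%, against 44.6%). CCAAT lay in 21 (32.8%, against 35.7%); this motif was added after the ATP5G1 sequence had been read. The promoter of ATP5G1 held 4 CCAAT matches, as 3 of the 64 member promoters and 1.06% of all promoters held at least 4. They began 181, 78, 48 and 22 bases before the start. The SDHA window held 4 NRF1 matches, which began 166, 117, 68 and 19 bases before the start, the NDUFA6 window held YY1 letters and a pair of CCAAT matches, and the NDUFS1 window held ETS letters on the opposite strand. The ATP5G2 window held none of the 4 capitalised motifs. Searches were made on both strands, a position matched on both counting once, and no capitalised matches overlapped each other in the windows shown. A match describes the letters and was not tested as a site of binding. The 27305 promoters were not limited to genes tested here, unlike the 64 of members, so the percents compare unlike sets.

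The chain was expressed throughout, and its total TPM was lower late in the course than at the start in both replicate series. Summed over all 94 rows, the members held 8269 and 8562 TPM at 0 h (replicate 1 and then 2), 8146 and 8974 at 6 h, 7023 and 8763 at 12 h, 6948 and 7973 at 24 h, 6151 and 7175 at 36 h, 5606 and 7142 at 48 h, 5455 and 7082 at 72 h and 6017 and 7478 at 96 h. From 24 h on, both libraries of each time lay below both 0 h libraries. The mean at 48 h was 6374 ± 1086 TPM, against 8415 ± 207 TPM at 0 h (SD, n = 2 each). That order depends on the scale, since with TMM scaling the 48 h mean was 111% of the 0 h mean. At 96 h, TMM scaling gave 67.0% of its own 0 h value in replicate 1 and 138% in replicate 2, so the 2 series lay on opposite sides of their start. No test was made on these sums, since 2 against 2 libraries give no exact permutation p below 0.333.

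Complexes I, III, IV and V kept nearly the same shares of the members' TPM, a measure that does not depend on the scale. Complex I held 34.2% to 36.0% of the members' TPM over the 16 libraries, complex III 9.87% to 11.5%, complex IV 25.5% to 28.5% and complex V 23.5% to 26.3%. Complex II, the smallest complex, held 1.76% to 2.86%, a wider range relative to its size. Its lowest share was in 96 h replicate 2 and its highest in 12 h replicate 1. As a percent of the 0 h mean, the 48 h sums were 76.4% for complex I, 63.6% for complex II, 77.4% for complex III, 79.9% for complex IV and 71.0% for complex V.

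**Figure D1:**
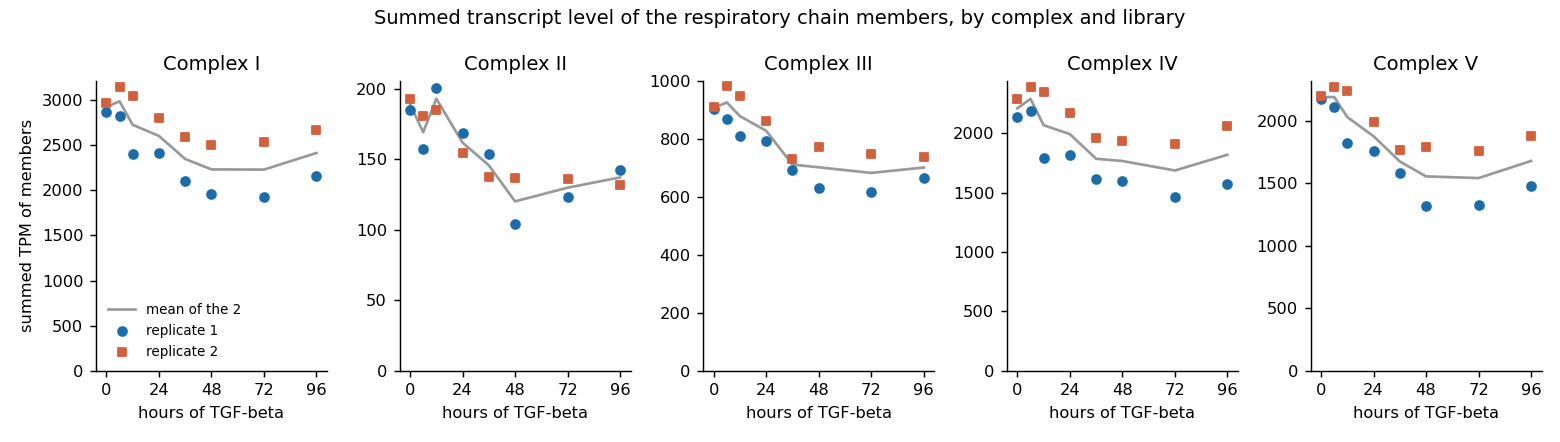
Summed TPM of the members of each complex (y axes, TPM as deposited, each starting at 0) by hours of TGF-beta (x axes), with a blue circle for replicate 1, an orange square for replicate 2 and a grey line for their mean. On this scale all 5 panels are lower at 48 h than at 0 h, and replicate 2 lies above replicate 1 at every time in complexes I, III, IV and V.

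At 6 h, member levels were close to those of the start while most other genes had lower TPM. The median log2 fold change of the 85 members was -0.00 and that of all genes -0.37, and the difference was the same in sign in replicate 1 (0.37) and replicate 2 (0.33). That difference was smaller when genes below the filter were kept, and no background of like level is given at 6 h. limma called 0 members in either direction at 6 h, against 0.0177% of all genes called lower and 0.0% called higher, and 0 members had an unadjusted p below 0.05, where 12.6% of all genes were lower and 1.01% higher at that level. The highest at 6 h were NDUFB4, a complex I membrane arm subunit (154 and 162 TPM, against 117 and 143 at 0 h), COX7A2, a small complex IV subunit (130 and 142 TPM, against 102 and 121), and ATP5L, the g subunit of ATP synthase (93.2 and 122 TPM, against 77.4 and 102). NDUFB4 and COX7A2 lay above both 0 h libraries, ATP5L did not, and no change among them exceeded 0.28. Both 6 h libraries lay below both 0 h libraries for 17 of 85 members, against 61.8% of all genes, and above them for 12, against 5.66%. With TMM scaling they lay above for 77 of 85, against 33.2%, so the choice of scale sets whether the members as a whole read as level or higher at 6 h. The lowest at 6 h were the low-level second row of NDUFB8 (ENSG00000255339, 0.34 and 0.78 TPM, against 2.08 and 1.05), the antisense row NDUFA6-AS1 (0.40 and 0.83 TPM, against 0.90 and 1.76) and SDHA (54.2 and 61.9 TPM, against 70.5 and 76.7). SDHA is the flavoprotein of complex II; its log2 fold change was -0.34 (SE 0.23, limma adjusted p = 0.449), and 0.19 with TMM scaling.

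From 12 h on the member median was below 0, and its place relative to all genes differed between the replicate series. For 12, 24, 36, 48, 72 and 96 h in that order, the member medians were -0.07, -0.19, -0.35, -0.45, -0.43 and -0.29. The all-gene medians in the same order were 0.03, -0.15, -0.16, -0.46, -0.16 and -0.20, and after TMM scaling the member medians were -0.12, -0.03, -0.19, 0.06, -0.23 and -0.04. At 96 h the member median minus the all-gene median was -0.49 in replicate 1 and 0.29 in replicate 2. The same split in sign was seen at 12 h (-0.48 and 0.29), 24 h (-0.23 and 0.15) and 36 h (-0.43 and 0.06). At 72 h both were negative (-0.50 and -0.03), the second turning to 0.02 with TMM scaling. At 48 h the member and all-gene medians lay close together in both series, with differences of -0.04 and 0.09. The 3683 genes averaging 20 TPM or more, a background closer to the members in level, had medians of -0.46 at 48 h and -0.22 at 96 h.

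**Figure D2:**
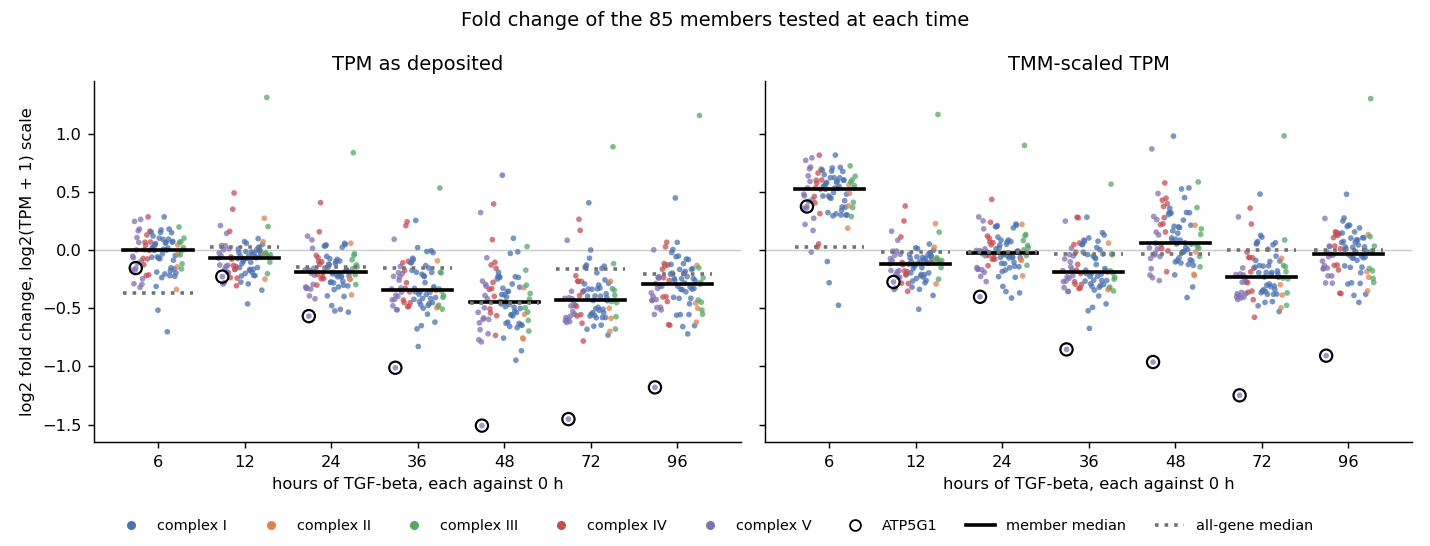
Log2 fold change against 0 h (y axis, log2(TPM + 1) scale) of each of the 85 tested members at the 7 later times (x axis, hours), coloured by complex, with TPM as deposited on the left and TMM-scaled TPM on the right; solid bars are member medians, dotted bars medians of all genes tested, and open circles mark ATP5G1. The member median is -0.45 at 48 h on the left and 0.06 on the right, while ATP5G1 is the lowest member from 36 h to 96 h in both panels.

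**Figure D3:**
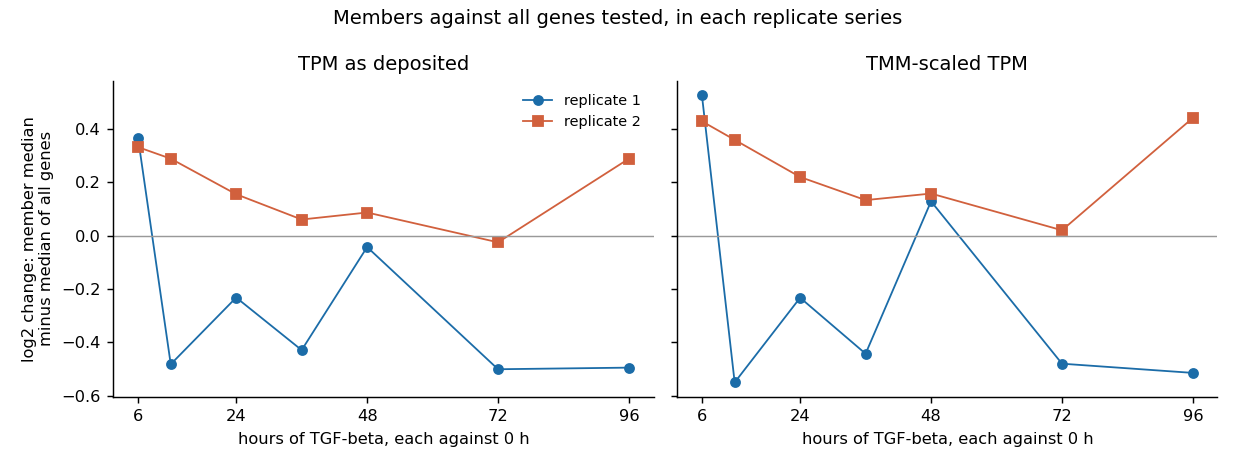
Median log2 change of the members minus that of all genes tested (y axis), taken within replicate 1 (blue circles) and within replicate 2 (orange squares), at each time against the 0 h library of the same number (x axis, hours), with TPM as deposited on the left and TMM-scaled TPM on the right. At 96 h the deposited values are -0.49 for replicate 1 and 0.29 for replicate 2, on opposite sides of 0.

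Median annotated transcript length and small RNA content moved with that split between the series, and their part in it was not tested. The small RNA share was smaller in replicate 1 than in replicate 2 at 12, 24, 36, 72 and 96 h (50.6% and 62.1% at 96 h) and larger at 6 and 48 h. Over the 77 tested members with a mean of at least 10 TPM, median coding transcript lengths in GENCODE 29 ran from 314.5 to 3475 bases. The log2 ratio of replicate 1 to replicate 2 had Spearman correlations with that length of 0.16, -0.30, 0.42, 0.33, 0.31, 0.00, 0.40 and 0.31 over the 8 times from 0 to 96 h. These are correlations across genes within pairs of libraries, not across independent samples. That length is a median over the annotated coding transcripts of a gene, and which of them these cells express was not determined. At 72 h the 61 members with a median length under 1000 bases had a median log2 ratio of -0.38, and the 16 others -0.17. For changes against 0 h, Spearman correlations with length were -0.39, 0.34, -0.07, 0.01, -0.20, 0.01 and 0.00 from 6 to 96 h. At 6 h the median change was 0.04 in the members of shorter median length and -0.12 in the others. COX7C, the most abundant member of complex IV with a median transcript length of 666 bases, shows the split between the series. It had 199 TPM in 96 h replicate 1 against 299 TPM in 0 h replicate 1, and 348 TPM in 96 h replicate 2 against 334 TPM in 0 h replicate 2.

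Individual calls were few and came at 48 h. limma called 6 of 85 members lower at 48 h (7.06%) and 0 higher, against 6.8% of all genes called lower and 0.796% called higher, so the share of members called lower was close to the background. The 6 were NDUFA6, NDUFS1 and NDUFV2 of complex I and ATP5B, ATP5F1 and ATP5G1 of complex V. At unadjusted p below 0.05, 34 members were lower and 0 higher at 48 h, against 26.7% and 2.26% of all genes. Both 48 h libraries lay below both 0 h libraries for 62 of 85 members, against 62.3% of all genes. Without either 0 h library, or without 48 h replicate 1, 0 members were called, and without 48 h replicate 2 there were 11. TMM scaling left 0, against 2.42% of all genes called lower, and leaving the small RNAs out of the TPM also left 0, against 3.63%. With the replicate number as a block, 20 members were called lower, against 14.9% of all genes. With the block and TMM scaling together ATP5G1 alone was called (adjusted p = 0.0480), against 6.45% of all genes.

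In deposited TPM from 24 h on, a larger share of members than of all genes had both libraries below both 0 h libraries. With TMM scaling this order turned at 24, 36, 48 and 96 h. At 24 h, in deposited TPM, this lower placing held for 40 of 85 members (47.1%), against 37.1% of all genes. At 36 h it held for 54 (63.5%, against 33.2%), at 72 h for 66 (77.6%, against 41.5%) and at 96 h for 51 (against 31.0%). Both 96 h libraries lay below both 6 h libraries for 48 members (56.5%), against 11.1% of all genes. With TMM scaling the counts were smaller. The members' share was then below that of all genes at 24 h (12 members, 14.1%, against 26.2%) and at 36 h (21 members, 24.7%, against 27.0%). It was also below at 48 h (10 members, 11.8%, against 29.6%) and at 96 h (5 members, 5.88%, against 20.4%). It was above that of all genes at 72 h (32 members, 37.6%, against 26.7%) and for 96 h below 6 h (45 members, 52.9%, against 25.8%). At 48 h, 33 members (38.8%, against 24.3%) lay above both 0 h libraries with TMM scaling. The difference between members and all genes in these counts was not tested. Most members are abundant (77 of 85 average at least 10 TPM), and no background of like level is given for these counts.

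At the other times limma called 0 members in either direction. For 12, 24, 36, 72 and 96 h in that order, 0.13%, 0.595%, 1.33%, 1.74% and 1.26% of all genes were called lower and 0.253%, 0.613%, 0.967%, 0.831% and 0.536% higher. Unadjusted p-values below 0.05 were all for lower levels. For 12, 24, 36, 72 and 96 h in that order, they were found in 0, 2, 13, 28 and 16 members, against 3.22%, 6.67%, 9.73%, 12.1% and 10.5% of all genes lower and 5.07%, 4.11%, 4.64%, 3.84% and 2.85% higher. The comparison of 96 h with 6 h, which uses no 0 h library, called 0 members, against 0.318% of all genes lower and 0.33% higher, with 9 members lower and 0 higher at unadjusted p below 0.05 (against 4.01% and 7.21% of all genes). The F test over the course called 0 members, against 1.72% of all genes, with 13 at unadjusted p below 0.05, against 2371 of the 16967 genes. With the replicate block, limma called NDUFA6 and ATP5G1 at 36 h (against 3.15% of all genes), NDUFV2, COX8A and ATP5G1 at 72 h (4.22%), ATP5G1 at 96 h (3.31%), NDUFC1 and ATP5G1 for 96 h against 6 h (1.3%) and ATP5G1 in the F test (6.13%), each pairwise call being of a lower level. With the block and TMM scaling together it called ATP5G1 at 72 h (against 4.93% of all genes) and in the F test (11.5%), and NDUFV2, SDHB and ATP5G1 for 96 h against 6 h (5.33%). Comparisons with 0 h share the same 2 libraries, so these are not independent of each other.

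In complex I, the 3 genes called at 48 h belong to the peripheral arm, where NADH is oxidised. As the 6 member calls at 48 h (7.06%) were near the all-gene share (6.8%), no pattern by arm is drawn from them. With the replicate block, limma also called membrane arm genes lower, among them NDUFB10 (adjusted p = 0.0386) and the main NDUFB8 row (ENSG00000166136, adjusted p = 0.0398). NDUFS1 is the large iron-sulfur subunit that carries electrons away from the flavin site. It had 17.8 and 26.1 TPM at 48 h, against 39.8 and 45.4 TPM at 0 h, and its log2 fold change was -0.95 (SE 0.22, limma adjusted p = 0.0271). NDUFV2, an iron-sulfur partner of the flavin-binding subunit, had 35.0 and 53.0 TPM at 48 h, against 74.8 and 83.9 TPM at 0 h (log2 fold change -0.86, SE 0.23, limma adjusted p = 0.0418). Neither gene's libraries overlapped between the times. NDUFA6, an accessory subunit of the LYR family, had 27.8 and 27.7 TPM at 48 h, against 48.2 and 47.0 TPM at 0 h (log2 fold change -0.76, SE 0.19, limma adjusted p = 0.0308). Its replicates lay close together. With TMM scaling the log2 fold changes of NDUFS1, NDUFV2 and NDUFA6 were -0.41, -0.32 and -0.21, and none of the 3 was called. Over the course NDUFA6 had 48.2 and 47.0 TPM at 0 h, 41.3 and 50.4 at 6 h, 43.2 and 47.0 at 12 h, 38.4 and 39.7 at 24 h, 29.1 and 29.7 at 36 h, 27.8 and 27.7 at 48 h, 32.3 and 31.3 at 72 h and 33.1 and 30.9 at 96 h. Its libraries from 24 h on were all below both 0 h libraries.

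As groups, the NDUFS and NDUFV genes, which include the subunits that bind the flavin and the iron-sulfur clusters, had a median log2 fold change of -0.63 at 48 h (11 tested, 2 called lower), and the 30 tested NDUFA, NDUFB and NDUFC rows, mainly accessory subunits, had -0.39 (1 called lower). With TMM scaling these medians were -0.08 and 0.12. NDUFV1, the subunit that binds NADH and the flavin, had 39.8 and 44.1 TPM at 48 h, against 65.0 and 66.8 TPM at 0 h, with no overlap (log2 fold change -0.64, SE 0.19, limma adjusted p = 0.0557, and 0.0343 with the replicate block). NDUFS4, an accessory subunit of the same arm, had 55.6 and 66.9 TPM at 48 h, against 65.4 and 58.2 TPM at 0 h, with overlapping libraries (log2 fold change -0.02, and 0.53 with TMM scaling). NDUFS5, the most abundant complex I member with a mean of 229 TPM, had 158 and 260 TPM at 48 h, against 229 and 249 TPM at 0 h, which also overlap (-0.24, and 0.32 with TMM scaling). NDUFB10, a membrane arm subunit, was among the lowest at 24 h, with 99.98 and 91.2 TPM, against 146 and 130 TPM at 0 h (log2 fold change -0.52, SE 0.19, limma adjusted p = 0.287). At 96 h the lowest complex I members were NDUFC1 (30.8 and 44.9 TPM, against 52.1 and 73.7 at 0 h) and NDUFB3 (38.5 and 33.6 TPM, against 56.9 and 57.7), neither called, with limma adjusted p = 0.554 and 0.342. NDUFA4, named for complex I but now placed with complex IV, had 44.6 and 52.4 TPM at 96 h, against 58.8 and 57.3 TPM at 0 h (log2 fold change -0.26, and 0.01 with TMM scaling). Its paralog NDUFA4L2, known as a hypoxia-responsive gene, was at 0.24 to 3.73 TPM. NDUFA4L2 had 3.73 and 0.29 TPM at 96 h, against 0.61 and 1.04 TPM at 0 h, so its log2 changes had opposite signs in replicate 1 (1.55) and replicate 2 (-0.66).

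In complex II, which links the citric acid cycle to the chain, all 4 SDH genes were expressed. SDHA, the flavoprotein, had 36.6 and 50.9 TPM at 48 h, against 70.5 and 76.7 TPM at 0 h, and SDHB, the iron-sulfur subunit, had 27.3 and 38.0 TPM, against 54.1 and 56.6 TPM. The libraries of both genes were apart. Their log2 fold changes of -0.76 each missed the threshold (limma adjusted p = 0.0600 and 0.0596) and passed it with the replicate block (adjusted p = 0.0372 and 0.0371, in the same order). With TMM scaling the changes were -0.21 and -0.22, and neither was called. SDHC, a membrane anchor, had 20.4 and 23.6 TPM at 48 h, against 28.4 and 27.1 TPM at 0 h (log2 fold change -0.32, and 0.21 with TMM scaling). SDHD (ENSG00000204370), the other anchor, had 19.6 and 23.9 TPM at 48 h, against 31.9 and 32.6 TPM at 0 h (-0.55, and -0.02 with TMM scaling). The median over the 4 genes was -0.65 at 48 h and -0.48 at 96 h, beside all-gene medians of -0.46 and -0.20. With TMM scaling the complex II medians were -0.11 and -0.21. At 12 h replicate 1, the library that stood apart, SDHA reached its highest value of 89.0 TPM.

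In complex III, the core proteins UQCRC1 and UQCRC2 and the Rieske iron-sulfur protein UQCRFS1 had a median log2 fold change of -0.60 at 48 h, and the other 6 UQCR rows -0.34. With TMM scaling these medians were -0.05 and 0.16. UQCRFS1 had 64.2 and 87.0 TPM at 48 h, against 125 and 119 TPM at 0 h (log2 fold change -0.70, SE 0.21, limma adjusted p = 0.0581, and 0.0317 with the replicate block). UQCRB, which helps form the ubiquinone site, had 153 and 182 TPM at 48 h, against 165 and 162 TPM at 0 h, and its libraries overlapped. UQCRH, the hinge protein and the most abundant member of the complex at a mean of 183 TPM, had 136 and 160 TPM at 96 h, against 210 and 224 TPM at 0 h, with no overlap. A second row under the symbol UQCR11 (ENSG00000267059) had the highest fitted log2 fold change of the members at 24 and 96 h (0.84 and 1.16), and was not called. It held 9.42 and 4.51 TPM at 96 h, against 7.27 and 0.40 TPM at 0 h, so the fitted 1.16 (SE 0.87) at 96 h rested on 0 h replicate 2 and was -0.13 without it. The main UQCR11 row (ENSG00000127540) had 19.7 and 34.9 TPM at 96 h, against 25.9 and 33.1 TPM at 0 h (log2 fold change -0.15, and 0.11 with TMM scaling). Reads shared by such paired rows cannot be assigned with certainty.

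In complex IV, the broadly expressed isoforms carried the expression and the tissue-restricted ones were at or near 0. COX4I1, COX6A1, COX6B1, COX7A2 and COX8A had means of 96.3 to 285 TPM, whereas COX4I2, COX7B2 and COX8C were listed at 0 in every library, COX6A2 was at 0 in 15 and 0.12 TPM in 1, COX6B2 was at 0.57 to 3.39 TPM and COX7A1 at 0.23 to 1.58 TPM. COX7C was the most abundant, at a mean of 286 TPM. COX8A, a small membrane subunit, had 155 and 240 TPM at 96 h, against 272 and 337 TPM at 0 h, with no overlap (log2 fold change -0.65, SE 0.36, limma adjusted p = 0.484). COX6A1 had 248 and 246 TPM at 48 h, against 243 and 300 TPM at 0 h, with overlap, and COX7A2L, which helps assemble supercomplexes, had 65.7 and 76.3 TPM, against 72.6 and 80.1 TPM, also with overlap. The log2 fold changes of COX6A1 and COX7A2L were -0.13 and -0.11, and 0.43 and 0.44 with TMM scaling. COX5A, a matrix-side subunit, had 115 and 109 TPM at 48 h, against 166 and 153 TPM at 0 h, and COX5B, which binds zinc, had 88.7 and 83.9 TPM, against 129 and 122 TPM. Both were apart from the start, missed the threshold (limma adjusted p = 0.0822 and 0.0756) and passed it with the replicate block (0.0491 and 0.0449). Their log2 fold changes were -0.51 and -0.54, and 0.05 and 0.01 with TMM scaling. COX7B, which is needed to build the complex, had 33.0 and 43.9 TPM at 48 h, against 66.4 and 61.7 TPM at 0 h (log2 fold change -0.73, SE 0.23, limma adjusted p = 0.0640, and 0.0263 with the replicate block). COX7A1, the muscle-type isoform, and COX6B2, the testis-type isoform, were the highest of the complex at 24 h on the log2 scale (0.41 and 0.16), at levels of 0.77 and 0.78 TPM for COX7A1 and 1.29 and 1.30 TPM for COX6B2, against 0.39 and 0.29 TPM and 0.91 and 1.22 TPM at 0 h. Neither was called (limma adjusted p = 0.770 and 0.963). At 96 h COX7A1 had 0.49 and 0.32 TPM, against 0.39 and 0.29 TPM at 0 h.

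**Figure D4:**
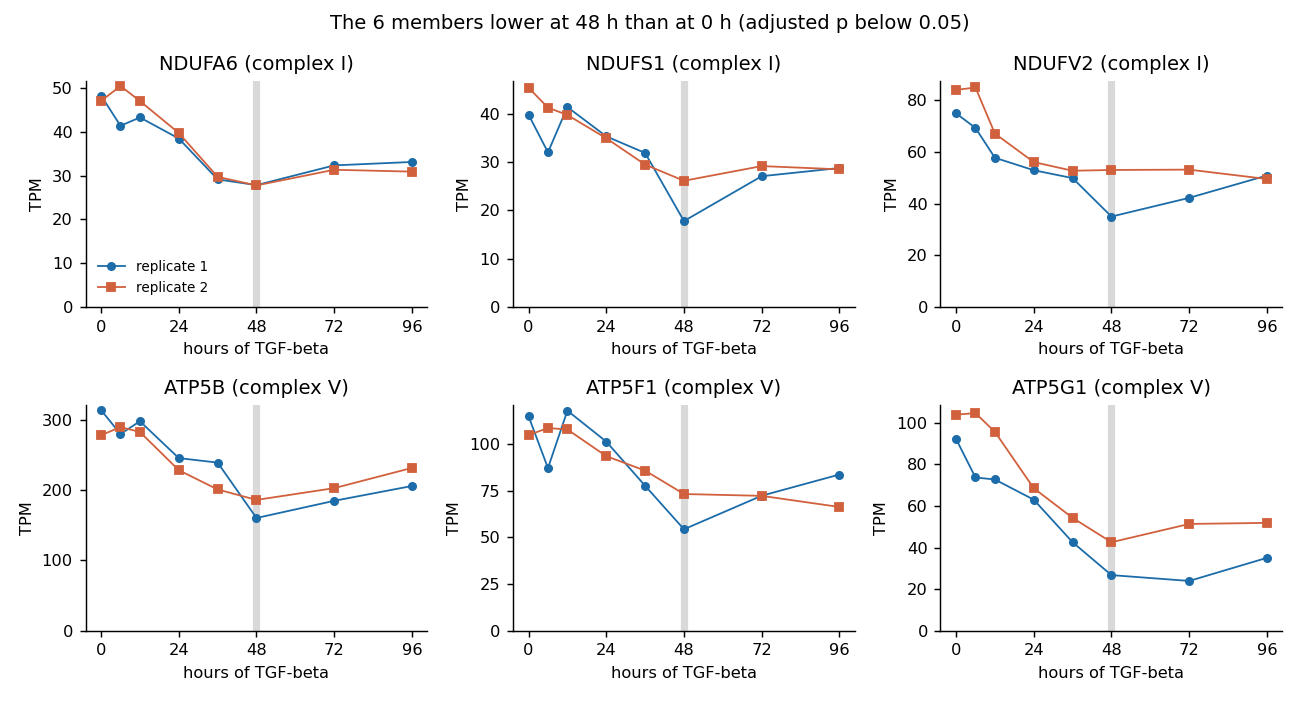
TPM (y axes, each starting at 0) of the 6 members called lower at 48 h by hours of TGF-beta (x axes), with replicate 1 as blue circles and replicate 2 as orange squares and a grey band at 48 h. In each panel both 48 h points lie below both 0 h points, and NDUFA6 is at 27.8 and 27.7 TPM at 48 h, against 48.2 and 47.0 TPM at 0 h.

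In complex V, the genes called at 48 h were ATP5B, ATP5F1 and ATP5G1. The members' share called at 48 h (7.06%) was near that of all genes (6.8%), and placing within the complex was not tested. ATP5B, the catalytic beta subunit and the most abundant member of the complex at a mean of 239 TPM, had 160 and 186 TPM at 48 h, against 313 and 278 TPM at 0 h (log2 fold change -0.77, SE 0.18, limma adjusted p = 0.0277). ATP5F1, the b subunit of the peripheral stalk, had 54.4 and 73.2 TPM at 48 h, against 115 and 105 TPM at 0 h (log2 fold change -0.79, SE 0.21, limma adjusted p = 0.0432). With TMM scaling both were closer to the start, at -0.22 and -0.24, and neither was called. ATP5A1, the alpha subunit of the head, had 103 and 158 TPM at 48 h, against 186 and 186 TPM at 0 h, and was not called (log2 fold change -0.54, SE 0.21, limma adjusted p = 0.128). With TMM scaling the ATP5A1 log2 fold change was 0.02. ATP5E, the epsilon subunit of the central stalk, had the only positive log2 fold change at 48 h among the 5 genes of the head and central stalk. ATP5E had 46.5 and 69.9 TPM at 48 h, against 37.7 and 54.6 TPM at 0 h, with overlapping libraries and no call (log2 fold change 0.32, SE 0.42, limma adjusted p = 0.602). ATP5SL, listed as DMAC2 in GENCODE 29, and ATP5S came in by their symbols and were not called at any time.

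ATP5G1 had the lowest log2 fold change of all tested members from 24 h on. It is 1 of 3 genes, with ATP5G2 and ATP5G3, whose products differ in the mitochondrial targeting peptide and give the same mature subunit c, the ring through which protons pass. ATP5G1 had 92.3 and 104 TPM at 0 h, 73.7 and 105 at 6 h, 72.8 and 95.7 at 12 h, 63.0 and 68.6 at 24 h, 42.6 and 54.3 at 36 h, 26.8 and 42.6 at 48 h, 24.0 and 51.4 at 72 h and 35.1 and 51.9 at 96 h. Every library from 24 h on was below both 0 h libraries. The log2 fold change was -1.51 at 48 h (SE 0.35, limma adjusted p = 0.0271), -1.45 at 72 h (adjusted p = 0.0507) and -1.18 at 96 h (adjusted p = 0.129). With the replicate block the limma adjusted p was 0.00157 at 48 h, 0.00190 at 72 h and 0.00870 at 96 h. Under TMM scaling the ATP5G1 log2 fold change was -0.96 at 48 h and -0.91 at 96 h, and it was not called (limma adjusted p = 0.281 and 0.436). With TMM scaling and the block together, the limma adjusted p was 0.0480 at 48 h, 0.0163 at 72 h and 0.0824 at 96 h, so the 96 h call was lost. It was also the lowest of the 85 with TMM scaling at 36, 48, 72 and 96 h, but not at 24 h. At 24 h ATP5G1 stood at -0.57 and the next lowest member, NDUFV2, at -0.53, neither called, whereas at 48 h the next lowest, NDUFS1, stood at -0.95. At 96 h, 3.25% of all genes tested had a fold change as low or lower, and with TMM scaling 3.75% did.

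The paralogs gave a comparison that no scaling can alter. Of the summed TPM of ATP5G1, ATP5G2 and ATP5G3, ATP5G1 held 21.4% and 22.8% at 0 h, 17.9% and 22.3% at 6 h, 22.1% and 21.3% at 12 h, 20.3% and 18.3% at 24 h, 15.2% and 16.5% at 36 h, 10.3% and 12.2% at 48 h, 10.2% and 15.1% at 72 h and 13.8% and 13.2% at 96 h. At 36 h and later both libraries were below every library of 0 to 24 h. ATP5G2 held 60.2% and 64.5% at 96 h, against 51.0% and 57.8% at 0 h, with no overlap, and ATP5G3 held 26.0% and 22.4%, against 27.6% and 19.4%, with overlap. In TPM, ATP5G2 had 153 and 254 at 96 h, against 220 and 264 at 0 h. ATP5G3 had 65.8 and 88.2 TPM at 96 h, against 119 and 88.7 TPM at 0 h. No test was made on the shares. RSEM, which the processing notes name, can divide reads between similar transcripts, so part of the split among the 3 genes is an estimate.

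**Figure D5:**
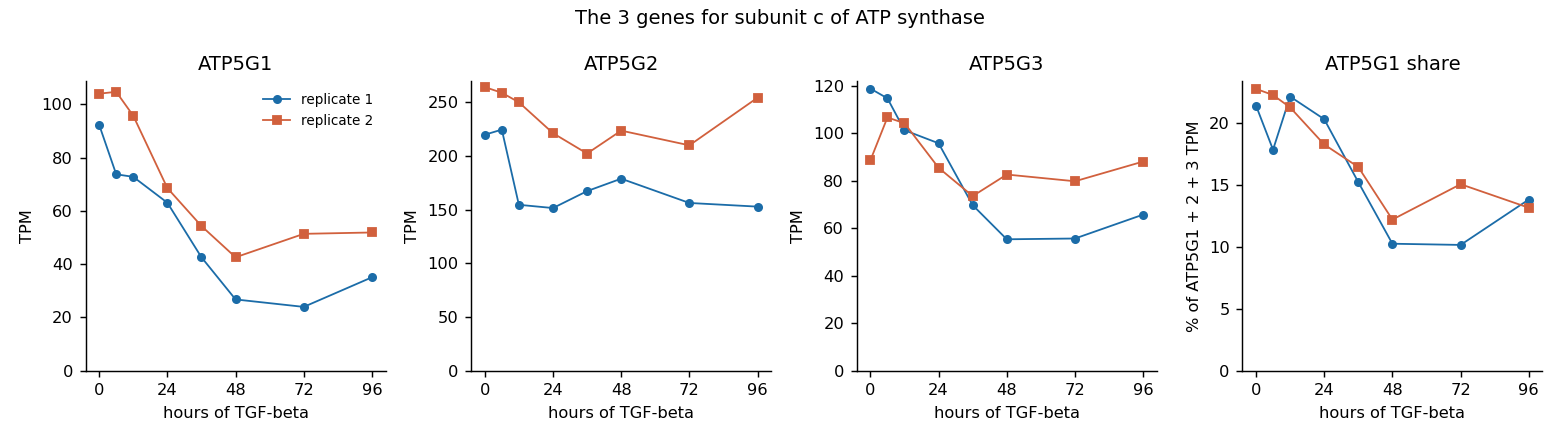
TPM of ATP5G1, ATP5G2 and ATP5G3 (first 3 panels) and the percent of their summed TPM held by ATP5G1 (last panel), by hours of TGF-beta (x axes), with replicate 1 as blue circles and replicate 2 as orange squares; all y axes start at 0. The ATP5G1 share is 13.8% and 13.2% at 96 h, against 21.4% and 22.8% at 0 h.

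The 9 rows below the filter account for the rest of the members. Apart from COX4I2, COX6A2, COX7B2 and COX8C they were the antisense row NDUFB2-AS1 (0.00 to 0.65 TPM), the read-through row NDUFC2-KCTD14 (0.00 to 1.26 TPM), ATP5L2 (0.00 to 0.31 TPM) and second rows of NDUFA7 (ENSG00000167774, at 0 in all libraries but 72 h replicate 1) and SDHD (ENSG00000255292, at most 0.30 TPM). Of the 85 tested rows, 77 had a mean of at least 10 TPM.

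Among genes that work beside the chain, limma calls were found at 48 h and none at 6 or 24 h or at 96 h, where 9 of 16 genes of the citric acid cycle and pyruvate dehydrogenase were lower at unadjusted p below 0.05, against 10.5% of all genes. These lists were compiled with earlier results known, and the genes named here were chosen after their values were seen. At 48 h limma called lower 5 of 16 genes of the citric acid cycle and pyruvate dehydrogenase (FH, PDHA1, MDH2, DLAT and SUCLG2; median -0.80), 8 of 77 tested mitochondrial ribosomal protein rows (median -0.58), 1 of 13 complex I assembly factors (FOXRED1; -0.58) and 2 of 21 complex IV assembly factors (COX15 and COX20; -0.55), and none of these higher, beside the 6.8% of all genes called lower and the all-gene median of -0.46. With the replicate block the counts in the same order were 10, 21, 3 and 7, against 14.9% of all genes, and with TMM scaling 0 in each, against 2.42%. Among 7 assembly factors of complexes II and III, 4 of complex V and 13 regulators of mitochondrial gene expression limma called 0, with 0, 3 and 3 lower at unadjusted p below 0.05 in that order, against 26.7% of all genes. Among 9 further chain components it called 2 lower, CYC1 and ETFA, and 4 with the replicate block. Cytochrome c1, the catalytic heme subunit of complex III, is encoded by CYC1 and lies outside the symbol rule. CYC1 had 56.6 and 53.8 TPM at 48 h, against 108 and 100 TPM at 0 h (log2 fold change -0.90, SE 0.21, limma adjusted p = 0.0253). ETFA, which hands electrons from fatty acid oxidation to the chain, had 69.2 and 87.5 TPM at 48 h, against 134 and 128 TPM (log2 fold change -0.74, SE 0.20, limma adjusted p = 0.0416). TFAM, which maintains and transcribes mitochondrial DNA, had 20.1 and 18.6 TPM at 48 h, against 39.1 and 30.7 TPM at 0 h, and was not called (limma adjusted p = 0.127), though it was with the replicate block (0.0449). The values of CYC1, ETFA and TFAM are on the deposited scale, where the all-gene median was -0.46. They are not given with TMM scaling.

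The 13 subunits encoded by mitochondrial DNA did not keep a fixed ratio to the nuclear-encoded ones. Their summed TPM was 9095 and 8534 at 0 h, 5058 and 4406 at 6 h, 3631 and 4909 at 48 h and 9118 and 5868 at 96 h. Set against the summed TPM of the members, a ratio that no scaling can alter, replicate 1 stood at 1.10, 0.621, 1.75, 1.19, 1.48, 0.648, 1.31 and 1.52 over the 8 times from 0 to 96 h. Replicate 2 stood at 0.997, 0.491, 0.573, 0.699, 0.690, 0.687, 0.842 and 0.785 over the same times. Replicate 2 was below its start at every later time, whereas replicate 1 was below it at 6 and 48 h and above it at the other 5 times. limma called 0 of the 13 at 48 h, with 6 lower at unadjusted p below 0.05, against 26.7% of all genes, and 10 called lower with the replicate block, against 14.9%. The median log2 fold change of the 13 at 48 h was -1.53, and -0.98 with TMM scaling.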

How the data were processed

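RNA of A549 cells at 8 times, 2 libraries each, was sequenced from TruSeq libraries, per the labels' protocols. The deposited values are TPM per gene, in a table for each replicate number. The submitters' processing notes list Bowtie and RSEM, with no version, and the build and annotation behind the tables were not given in the sources used here. The tables were joined by Ensembl identifier and analysed as log2(TPM + 1) with limma 3.58.1 in R 4.3.3 (1 mean per time over all 16 libraries, trended empirical Bayes, two-sided). Benjamini-Hochberg adjustment ran over the 16967 genes past the filter, within each comparison. The fit was tried on simulated data with independent noise in each library, which lack the correlation by replicate number described below. TMM factors were computed on the TPM, trimming 0.3 of the log ratios and 0.05 of the levels. Deviations from the time means correlated between libraries sharing a replicate number, by more than 0.1 in 28 of 28 pairs of times (lowest 0.128), so the replicate number was also fitted as a block. With TMM scaling the correlation was above 0.1 in 27 of 28 pairs (lowest 0.0799). Alternatives were TMM scaling, TPM without the 6 small RNAs (RPPH1, RMRP, RN7SK and the RN7SL family), a pseudocount of 0.1, no filter, the block, TMM with the block, and leaving out each library. Named members were the most abundant of each complex, the SDH genes, all called members, the 3 highest and 3 lowest at 6, 24 and 96 h, paralogs and isoforms, the rows below the filter, and NDUFV1, UQCRFS1, COX5A, COX5B and ATP5A1; others are examples chosen with their values known. The members, roles, lists and tests were chosen with earlier results of these data known.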

Additional observations from a re-analysis of the deposited data

How the results depend on the processing

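The count of members called rested on the scale, the pairing and single libraries. At 48 h, 6 were called, 0 with TMM scaling, 0 without the small RNAs, 20 with the replicate block, 1 with both TMM scaling and the block, and 0 to 11 when 1 library was left out. At 36 h the replicate block gave 2 and no filter gave 1. At 72 h the block gave 3, TMM scaling with the block 1, and leaving out 1 library 0 to 1. At 96 h the block gave 1; for 96 h against 6 h it gave 2, and 3 with TMM scaling. The F test gave 1 with the block, 1 with TMM scaling and the block, and 0 to 1 when 1 library was left out. The block changed no other count of members called. The member median minus the all-gene median at 6 h was 0.36, and 0.50 with TMM scaling (also with the block), 0.46 without the small RNAs, 0.48 with a pseudocount of 0.1, 0.10 with no filter and 0.30 to 0.37 when 1 library was left out. At 48 h it was 0.01, and 0.10, 0.12 and -0.31 without the small RNAs, with a pseudocount of 0.1 and with no filter, the last over a larger set of low genes. As percent of 0 h at 48 h, TMM scaling and then leaving out the small RNAs gave 112% and 96.8% for complex I, 92.7% and 80.5% for complex II, 113% and 98.2% for complex III, 117% and 101% for complex IV and 103% and 89.9% for complex V. At 96 h they gave 105% and 94.1%, 89.4% and 81.1%, 97.3% and 87.5%, and 106% and 94.1% for complexes I to IV, and TMM scaling gave 98.0% for complex V. When 1 library was left out, the second UQCR11 row (ENSG00000267059) ran from -0.45 (without 0 h replicate 2) to 2.12 at 24 h and from -0.13 (the same library) to 2.44 at 96 h. At 96 h COX7A1 ran from -0.021 to 0.15 and NDUFA4L2 from -0.49 to 1.38, both negative without 96 h replicate 1. The causes were not tested. The form of the percents, the alternatives for members called at 48 h and the 20 TPM background were chosen after seeing the data. Depth is unknown, so low TPM carry no interval.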

Other observations

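Within the members' summed TPM, a comparison that no scaling alters, ATP5G1 held 0.583% and 0.694% at 96 h, against 1.12% and 1.21% at 0 h. ATP5E held 0.829% and 0.978% at 48 h, against 0.456% and 0.638% at 0 h. NDUFS4 held 0.992% and 0.937% at 48 h, against 0.791% and 0.679% at 0 h. Both thus took a larger share at 48 h in each replicate series. At 96 h ATP5E held 0.601% and 0.764%, still larger in each series. NDUFS4 then held 0.996% and 0.472%, larger in replicate 1 and smaller in replicate 2. NDUFS1 held 0.317% and 0.366% at 48 h, against 0.481% and 0.530% at 0 h. In replicate 1 the NDUFS1 share was near its start again at 72 and 96 h (0.496% and 0.478%). In replicate 2 it was 0.412% and 0.381% at those times. NDUFV2 held 0.624% and 0.742% at 48 h and 0.845% and 0.662% at 96 h, against 0.905% and 0.980% at 0 h. These shares are values with no test.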
